A study of Homo sapiens with 12 samples.

Results

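The genes described here are 48 genes of mitosis and chromosome segregation, the listed spindle, kinetochore, condensin and mitotic kinase genes, measured by RNA sequencing in HK2 cells. They were chosen by name and not by a rule on their values, though with earlier results of these data known. They come out of 58288 gene IDs in the table of counts, and all 48 were among the 13959 genes with enough counts to test. HK2 is an established human kidney proximal tubule line. Every culture carried a short hairpin RNA (shRNA), stably expressed, which was directed against FLCN, the gene of the tumor suppressor folliculin, in the knockdown cells and was nontargeting in the control cells. Cells were harvested either at fewer than 30 passages (short-term) or at more than 120 passages (long-term), so that nontarget and knockdown cells of each age form 4 groups, each with 3 libraries. The labels call the libraries of a group biological replicates. The study's methods speak of knockdown clones, and which clone a library came from is not given in the sources used here, so p-values measure the spread between these libraries, and differences between shRNAs and between the clones that carry them cannot be told apart. The study asked how lasting loss of FLCN alters kidney cells, and the comparisons below ask whether mRNAs of the machinery that divides chromosomes differed after short or long knockdown.

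At the onset of mitosis, cyclin B with the kinase CDK1, helped by the PLK1 and Aurora kinases, drives the condensation of chromosomes by condensin and the building of the spindle. Kinetochores, assembled on the CENPA-containing chromatin of the centromere, bind the spindle microtubules, and the spindle assembly checkpoint restrains CDC20 and the anaphase-promoting complex until every chromosome is attached. Separase then cuts cohesin, the chromosomes part, and the central spindle directs cytokinesis. The mRNAs of most of these proteins are made late in the cell cycle, so in a mixed culture their level follows the share of dividing cells as well as the level in each cell. In RNA from whole cultures a larger share of dividing cells and more mRNA per dividing cell cannot be told apart.

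Promoters of such genes commonly hold CCAAT boxes, bound by the factor NF-Y, and the cell cycle genes homology region, written TTTGAA or TTTAAA, through which the DREAM and MuvB complexes act. In RefSeq windows of 300 bases (250 before and 50 after a gene's start, GRCh38.p14), which were found for 41 of the 48 genes in 46 windows, 69.6% held CCAAT on either strand against 34.6% of all 35116 windows. TTTGAA or TTTAAA on either strand was in 82.6% of the members' windows against 24.0% of all, and both kinds were in 58.7% against 9.27%. A match is a description of letters and not a bound site. The stretches printed next are the parts of such windows, 5′ to 3′ on the plus strand, that lie before the start and outside every annotated exon, for the 5 members with a called difference for which such a stretch exists and a match falls within it, and for CDK1, which had none. Capitals mark CCAAT or its reverse complement ATTGG, and they also mark TTTGAA with its reverse complement TTCAAA, or TTTAAA, which reads alike on both strands.
CCNB2 (chr15:59104896-59105077): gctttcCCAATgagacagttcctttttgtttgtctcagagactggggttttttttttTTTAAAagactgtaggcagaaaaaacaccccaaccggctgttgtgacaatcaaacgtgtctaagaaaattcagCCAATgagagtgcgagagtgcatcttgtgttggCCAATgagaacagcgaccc
CENPA (chr2:26785806-26785996): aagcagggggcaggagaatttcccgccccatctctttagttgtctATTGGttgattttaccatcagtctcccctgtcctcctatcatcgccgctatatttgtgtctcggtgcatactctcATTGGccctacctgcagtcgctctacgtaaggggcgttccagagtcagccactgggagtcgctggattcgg
ECT2 (chr3:172750476-172750681): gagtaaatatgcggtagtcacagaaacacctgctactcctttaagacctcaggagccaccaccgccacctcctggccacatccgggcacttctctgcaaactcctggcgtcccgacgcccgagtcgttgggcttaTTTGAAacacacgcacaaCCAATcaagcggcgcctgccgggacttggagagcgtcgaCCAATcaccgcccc
CDC20 (chr1:43358731-43358954): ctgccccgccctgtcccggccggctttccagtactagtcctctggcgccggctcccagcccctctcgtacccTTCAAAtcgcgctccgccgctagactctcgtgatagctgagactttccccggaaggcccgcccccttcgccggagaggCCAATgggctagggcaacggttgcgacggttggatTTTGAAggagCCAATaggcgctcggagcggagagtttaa
KIF11 (chr10:92592880-92593129): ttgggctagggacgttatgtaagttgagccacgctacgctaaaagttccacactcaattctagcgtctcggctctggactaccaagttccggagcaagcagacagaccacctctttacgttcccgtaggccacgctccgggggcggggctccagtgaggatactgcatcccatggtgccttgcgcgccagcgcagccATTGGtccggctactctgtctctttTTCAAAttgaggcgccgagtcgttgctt
CDK1 (chr10:60778081-60778330): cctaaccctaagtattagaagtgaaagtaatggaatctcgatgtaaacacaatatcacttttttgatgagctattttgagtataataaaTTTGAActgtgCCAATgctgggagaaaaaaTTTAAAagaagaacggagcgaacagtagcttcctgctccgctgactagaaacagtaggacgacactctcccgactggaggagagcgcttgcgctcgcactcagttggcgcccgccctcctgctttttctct
The printed stretch of CCNB2 holds 3 CCAAT boxes and TTTAAA, that of CDC20 holds CCAAT at 2 places with TTTGAA between them, and that of CENPA holds ATTGG at 2 places. Outside the printed stretches, nearer the gene's start, CCNB2 also holds CCAAT at base -54 and TTTGAA at -29. There CENPA holds TTTAAA at -57 and TTTGAA at -18. A second window of CDK1, not printed, holds ATTGG at -78 and -46, TTTGAA at -69 and -13 and TTCAAA at 9. Both windows of SMC4 lie in annotated exons, and neither holds CCAAT on either strand.

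The 48 mRNAs were abundant in these cells. Their mean level over the 12 libraries ran from 12.2 to 506 CPM (a gene's counts relative to the library's total in the usual scaling, with totals adjusted by TMM factors), with a median of 135 CPM against 22.8 CPM for all genes tested, and no member had fewer than 59 counts in any library of 5825779 to 8991051 counts. The 48 together summed to 7227 to 8843 CPM per library. Per kilobase of exon, as the mean of all 12 libraries, UBE2C, the ubiquitin-conjugating enzyme of the anaphase-promoting complex, had the highest level at 147 CPM per kb, followed by TPX2, an activator of Aurora A, at 140 CPM per kb and the cyclin CCNB1 at 137 CPM per kb. The order differed by group, with TPX2 above UBE2C in both short-term groups (141 against 137 CPM per kb in nontarget and 138 against 136 CPM per kb in knockdown libraries). The lowest levels were 2.67 CPM per kb for CENPE, a kinetochore motor, and 3.18 CPM per kb for SGO1, which protects cohesin at the centromere. FLCN itself was at 12.7, 16.7 and 16.5 CPM in the short-term nontarget libraries and at 5.95, 6.58 and 5.66 CPM after short-term knockdown. It was at 9.92, 11.9 and 12.2 CPM in the long-term nontarget and at 6.70, 6.31 and 7.97 CPM in the long-term knockdown libraries, so the targeted mRNA was lower in every knockdown library, by 1.29 ± 0.18 (SE) on the log2 scale short-term (adjusted p = 1.12e-04) and by 0.68 ± 0.18 long-term (adjusted p = 0.00611). Of 16 proximal tubule and kidney epithelial markers, 8 had enough counts to test, among them the kidney transcription factor PAX8 at 148 to 269 CPM and the keratin KRT8 at 1457 to 2587 CPM. Of these 8, 3 were higher and 1 lower short-term (37.5% and 12.5%, beside 5.62% and 4.71% of all genes tested), with a median log2 fold change of 0.33. Long-term 2 were higher and 2 lower (25% and 25%, beside 13.7% and 15.8%), with a median of -0.08. The apical receptor LRP2 and the factor HNF4A, which define mature proximal tubule, had 0 counts in all 12 libraries. Of 7 fibroblast markers 3 could be tested, with COL1A1 at 13.4 to 37.2 CPM, and long-term knockdown called 1 of them higher and 1 lower. The part of these markers in the results was not tested. All 6 endothelial and leukocyte markers were below the limit for testing.

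After short-term knockdown the mitotic mRNAs as a group stayed near the nontarget level. With edgeR, 1 of the 48 was called higher at an adjusted p below 0.05, CDC20, against 5.62% of all genes tested, and 0 were called lower against 4.71%. DESeq2 called the same numbers, and at an unadjusted p below 0.05 there were 5 higher and 1 lower. For DESeq2 and for unadjusted p the share of all genes was not taken, here and below. The median log2 fold change of the 48 was -0.004 against -0.0001 for all genes tested, with 23 members above 0, and the 95% interval lay within a 1.5-fold change in either direction for 41 of them and within 2-fold for all 48.

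CDC20, the activator of the anaphase-promoting complex and the target of the checkpoint, stood at 220, 192 and 190 CPM in the short-term nontarget libraries and at 253, 244 and 327 CPM after short-term knockdown. The groups did not overlap, and the highest library, replicate 3, lay well above the others. The log2 fold change was 0.45 ± 0.13 (SE, adjusted p = 0.0307), and the call was lost without short-term nontarget replicate 2 (adjusted p = 0.121), without short-term nontarget replicate 3 (0.116) or without short-term knockdown replicate 3 (0.134). With 1 library left out, its size ranged between 0.31 and 0.53 (log2), lowest without short-term knockdown replicate 3, and 0.27 without the 4 libraries of number 3, where it was called (adjusted p = 0.0324). In the long-term comparison CDC20 was at 212, 221 and 261 CPM in nontarget and 216, 216 and 270 CPM in knockdown libraries, a log2 difference of 0.02 ± 0.13. BUB1B, the checkpoint kinase-like protein that binds CDC20, had the lowest short-term value, at 77.5, 64.7 and 68.0 CPM in nontarget and 55.4, 59.7 and 39.8 CPM in knockdown libraries. Its groups did not overlap, but the difference of -0.44 ± 0.15 on the log2 scale did not pass the test (adjusted p = 0.0872). It was called lower with no filter on low counts (0.0173) and with an offset for GC content (0.0127), an alternative chosen after seeing the data. It was also called lower with the replicate block (0.00561) and with offset and block (4.99e-04). Short-term, however, same-numbered libraries correlated only at 0.017, 0.111 and 0.054, so the block does not rest on a pairing there.

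After long-term knockdown 6 of the 48 mRNAs were higher: SMC4, CENPA, ECT2, CCNB2, KIF11 and BIRC5. This is 12.5% of the members, beside 13.7% of all genes tested that were called higher. With edgeR 0 members were lower, against 15.8% of all genes tested, with 2 at an unadjusted p below 0.05 and 1 by DESeq2. The median log2 fold change was 0.10 against 0.002 for all genes tested, with 36 of 48 above 0, and the 95% interval lay within 1.5-fold for 36 and within 2-fold for 46. The median was 0.05 without long-term knockdown replicate 2, 0.15 without long-term nontarget replicate 1 and 0.16 without long-term knockdown replicate 3. In this comparison same-numbered libraries tended to vary together, though knockdown replicate 2 correlated more with nontarget replicate 1 (0.231) than with replicate 2 (0.123). With the replicate number as a block 11 members (22.9%) were higher, beside 17.4% of all genes in that fit, and 2 (4.17%) were lower, beside 19.4%. The share of members that rose thus lay below that of all genes without the block and above it with the block. The 5 gained on the higher side were the kinesins KIF18A (log2 fold change 0.29), KIF20A (0.25) and KIF20B (0.48), the condensin subunit NCAPH (0.27) and the kinetochore protein SPC25 (0.35), and the 2 lower ones were the kinase AURKA (-0.21) and the central spindle protein PRC1 (-0.26).

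**Figure D1:**
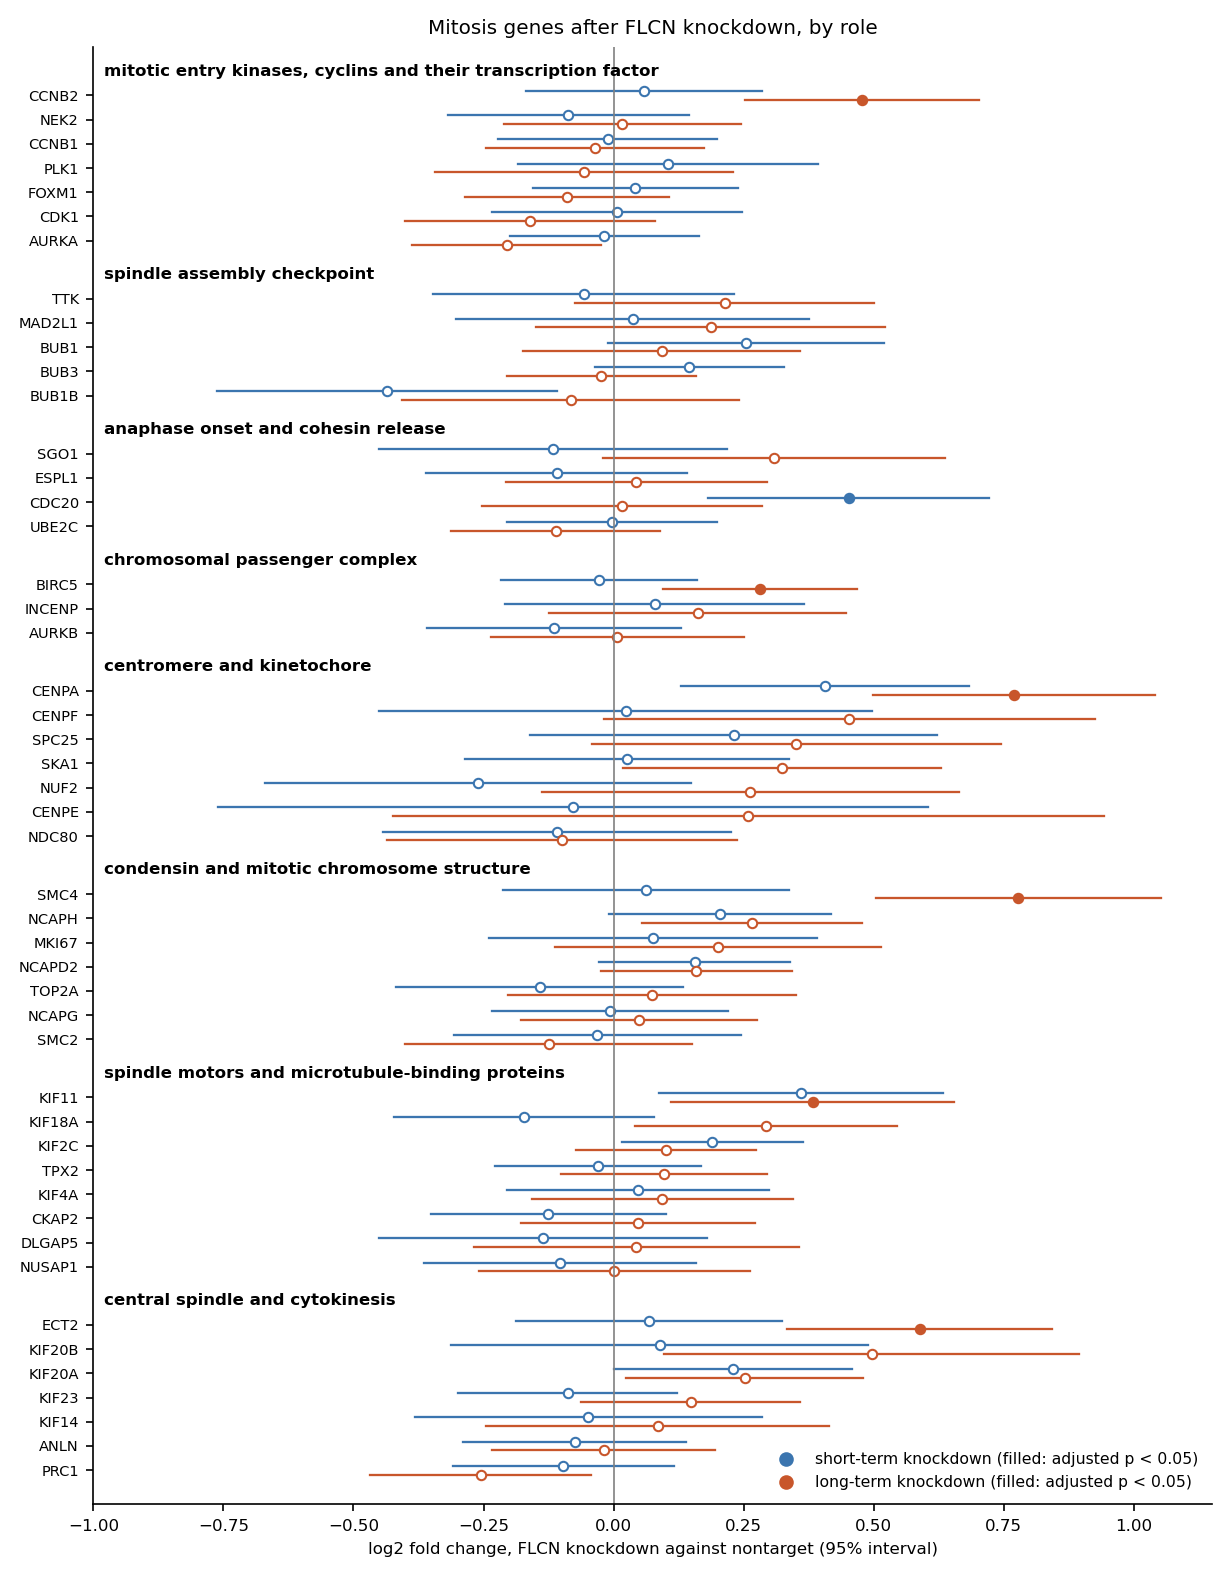
Log2 fold changes of the 48 members (points) with 95% intervals (lines) after short-term (blue) and long-term (orange) FLCN knockdown against the nontarget libraries of the same age, by role, with filled points at an adjusted p below 0.05. CDC20 is the 1 filled point short-term, and SMC4, CENPA, ECT2, CCNB2, KIF11 and BIRC5 are the 6 filled points long-term, all to the right of 0.

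SMC4, the ATPase subunit shared by condensin I and II, had the largest rise among the members. It was at 218, 188 and 170 CPM in the long-term nontarget libraries and at 345, 376 and 268 CPM in the long-term knockdown libraries. The groups were well apart, and the short-term nontarget (184, 192 and 209 CPM) and knockdown libraries (204, 228 and 178 CPM) lay with the long-term nontarget ones. The log2 fold change was 0.78 ± 0.13 long-term (adjusted p = 1.92e-04) and 0.06 ± 0.13 short-term. The difference between the long-term and short-term knockdown effects was itself past the test, at 0.72 ± 0.18 (adjusted p = 0.0134), and stayed called in every fit that left out 1 library. The other ATPase subunit, SMC2, had a log2 fold change of -0.12 ± 0.13, and the condensin I subunits NCAPG, NCAPD2 and NCAPH had 0.05, 0.16 and 0.27, none of them called. NCAPH was called with the replicate block and over genes of at least 10 CPM. It was also called with the GC offset and without the libraries of number 3, alternatives chosen after seeing the data.

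CENPA, the histone variant that marks the centromere, was at 37.8, 32.4 and 43.6 CPM in long-term nontarget and at 60.1, 60.8 and 74.5 CPM in long-term knockdown libraries, a log2 fold change of 0.77 ± 0.13 (adjusted p = 1.84e-04). Short-term it was at 36.1, 37.5 and 30.6 CPM in nontarget and 45.0, 47.7 and 45.8 CPM in knockdown libraries, groups that also did not overlap. The short-term log2 fold change of 0.41 ± 0.13 missed the test (adjusted p = 0.0569). It was called in the fit of the 2 groups alone (0.0342) and with the GC offset (0.0209), which was chosen after seeing the data. It was also called with the replicate block (0.0239) and with block and offset (0.00586), though short-term libraries share only a number. CENPA was thus higher in each knockdown library than in every nontarget library of either age. ECT2, the exchange factor that activates RhoA for cytokinesis, was at 230, 173 and 175 CPM in long-term nontarget and at 307, 299 and 263 CPM in long-term knockdown libraries. Its groups did not overlap, the log2 fold change was 0.59 ± 0.12 (adjusted p = 0.0012), and its short-term value was 0.07 ± 0.12.

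CCNB2, a B-type cyclin, was at 108, 104 and 85.7 CPM in long-term nontarget and at 145, 148 and 121 CPM in long-term knockdown libraries. All 6 short-term libraries lay between 100 and 108 CPM, so the long-term knockdown libraries stood above all the others. The log2 fold change was 0.48 ± 0.11 (adjusted p = 0.00244). CCNB1, the other B-type cyclin among the members, was at 403, 383 and 344 CPM in long-term nontarget and 375, 387 and 341 CPM in long-term knockdown libraries, a log2 difference of -0.04 ± 0.10 with overlapping groups. SMC4, CENPA, ECT2 and CCNB2 were called in the long-term comparison in every fit that left out 1 library.

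BIRC5 (survivin), the chromosomal passenger subunit that targets the complex to the centromere, was at 232, 232 and 213 CPM in long-term nontarget and 284, 252 and 287 CPM in long-term knockdown libraries. The groups did not overlap, and the log2 fold change was 0.28 ± 0.09 (adjusted p = 0.0228). The call was lost without long-term nontarget replicate 3 (adjusted p = 0.102), without long-term knockdown replicate 1 (0.0901) and without long-term knockdown replicate 3 (0.0622), and also without the filter on low counts (0.0713) and in the fit of the 2 groups alone (0.0678). KIF11 (Eg5), the motor that pushes spindle poles apart, was at 149, 110 and 114 CPM in long-term nontarget and 175, 173 and 138 CPM in long-term knockdown libraries, which overlapped. Its log2 fold change of 0.38 ± 0.13 (adjusted p = 0.033) was no longer past the test without long-term nontarget replicate 2 (0.151) or 3 (0.117) or long-term knockdown replicate 1 (0.131) or 2 (0.118). Short-term, KIF11 was at 125, 123 and 150 CPM in nontarget and 172, 182 and 157 CPM in knockdown libraries, with a log2 fold change of 0.36 ± 0.13 (adjusted p = 0.0905). It was called with no filter and in the fit of the 2 groups alone, and also with the replicate block, though short-term libraries share only a number.

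**Figure D2:**
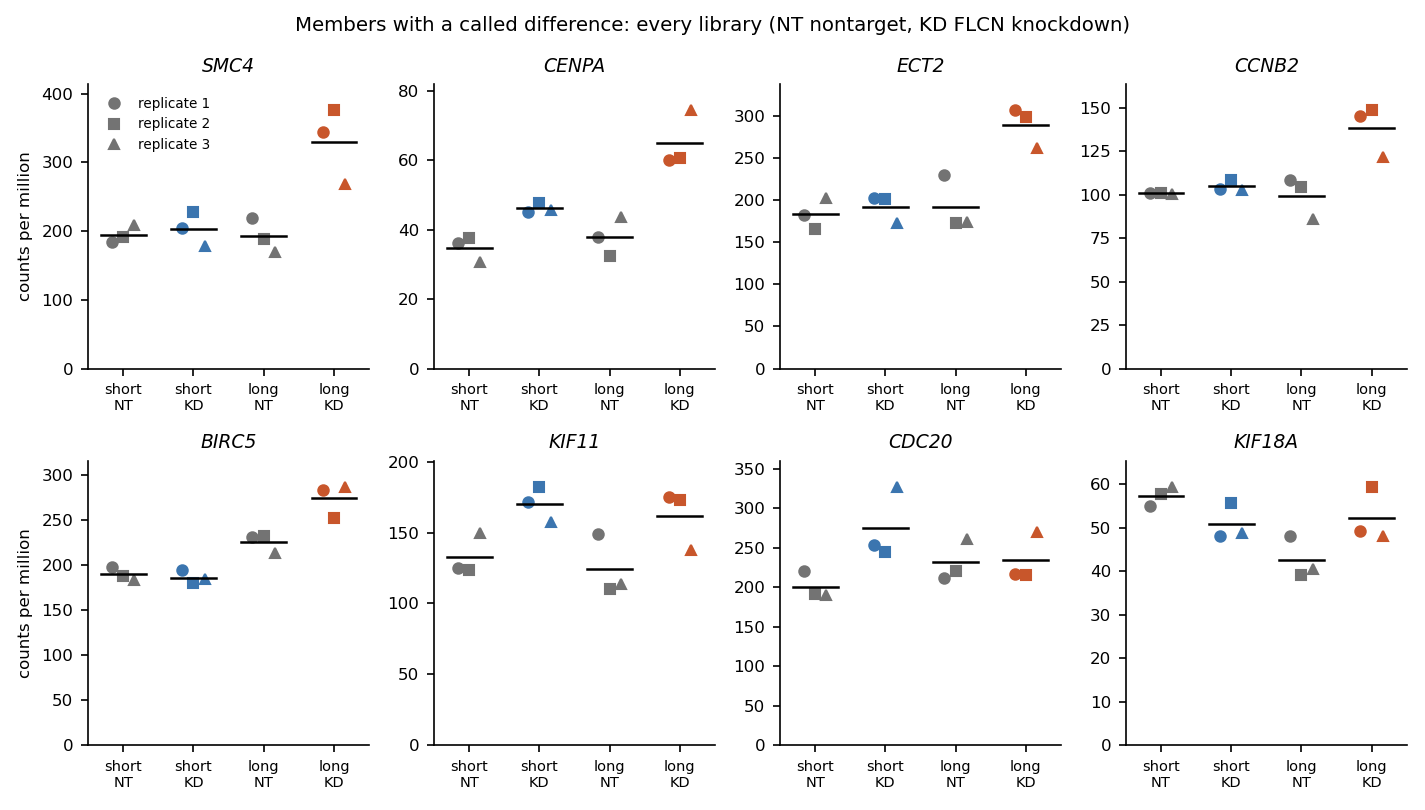
CPM in every library for the 8 members with a called difference in a comparison of 2 groups (symbols for replicate numbers, black lines for group means of 3 libraries, axes from 0). The long-term knockdown libraries of SMC4, CENPA, ECT2, CCNB2 and BIRC5 lie above all other libraries, while those of KIF11, CDC20 and KIF18A overlap other groups.

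CDK1 and FOXM1 had no called difference in either knockdown comparison. CDK1, the kinase that drives mitotic entry, was at 205, 213 and 215 CPM in short-term nontarget, 214, 234 and 187 CPM in short-term knockdown, 255, 198 and 199 CPM in long-term nontarget and 212, 193 and 179 CPM in long-term knockdown libraries. All 4 groups overlapped, with log2 differences of 0.01 ± 0.11 short-term and -0.16 ± 0.11 long-term. FOXM1, the transcription factor that activates late cell cycle genes, was at 222, 212 and 200 CPM in short-term nontarget, 206, 228 and 218 CPM in short-term knockdown, 215, 241 and 230 CPM in long-term nontarget and 197, 216 and 231 CPM in long-term knockdown libraries. Its differences were 0.04 ± 0.09 and -0.09 ± 0.09. Of the 7 mitotic entry genes, 0 were called short-term and CCNB2 alone long-term, with medians of 0.01 and -0.06. CCNB2 makes 14.3% of the 7, beside 13.7% of all genes called higher, and so few genes say little about the group. AURKA was at 313, 313 and 284 CPM in long-term nontarget and at 256, 277 and 255 CPM in long-term knockdown libraries, which did not overlap. Its difference of -0.21 ± 0.09 was not called (adjusted p = 0.0832), but it was called lower with the replicate block (adjusted p = 0.0365) and by DESeq2. It was also called lower with the GC offset, with and without the block, and without the libraries of number 3, alternatives chosen after seeing the data.

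AURKB, the kinase of the chromosomal passenger complex, was at 112, 99.5 and 95.5 CPM in short-term nontarget, 89.5, 92.1 and 102 CPM in short-term knockdown, 99.2, 99.6 and 104 CPM in long-term nontarget and 88.6, 95.8 and 121 CPM in long-term knockdown libraries. The long-term difference was 0.01 ± 0.12 on the log2 scale, with a 95% interval from -0.24 to 0.25. In the long-term comparison BUB1B was at 71.3, 70.9 and 52.7 CPM in nontarget and 64.1, 67.2 and 52.2 CPM in knockdown libraries, a difference of -0.08 ± 0.15. The 5 spindle assembly checkpoint genes were uncalled in both knockdown comparisons, where 5.62% and 4.71% of all genes were higher and lower short-term and 13.7% and 15.8% long-term, and had log2 fold changes between -0.44 and 0.26 short-term and between -0.08 and 0.21 long-term.

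MKI67, which coats mitotic chromosomes and whose protein is read as a mark of proliferating cells, was at 201, 206 and 284 CPM in short-term nontarget, 233, 279 and 216 CPM in short-term knockdown, 227, 257 and 253 CPM in long-term nontarget and 279, 339 and 230 CPM in long-term knockdown libraries. The spread within groups was wide, and the differences of 0.08 ± 0.15 short-term and 0.20 ± 0.15 long-term passed no test. Without the 4 libraries of number 3, an alternative chosen after seeing the data, MKI67 was called higher in both knockdown comparisons, at 0.33 short-term (adjusted p = 0.0296) and 0.35 long-term (adjusted p = 0.00789). TOP2A, the topoisomerase that untangles sister chromatids, was at 383, 386 and 474 CPM in short-term nontarget, 390, 410 and 326 CPM in short-term knockdown, 411, 372 and 355 CPM in long-term nontarget and 428, 451 and 318 CPM in long-term knockdown libraries. Its groups overlapped in both comparisons, with differences of -0.14 ± 0.13 and 0.07 ± 0.13.

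The centromere and kinetochore genes had the highest long-term median of the 8 role groups, 0.32 over 7 genes, of which CENPA was called and NDC80, the microtubule-binding subunit of the outer kinetochore, lay lowest at -0.10. Short-term the median of these 7 was 0.02. The 7 condensin and chromosome structure genes had a long-term median of 0.16, the 7 central spindle and cytokinesis genes 0.15 and the 8 spindle motors and microtubule-binding proteins 0.10, each with 1 called gene. The called gene makes 14.3% of each list of 7 and 12.5% of the list of 8, near the 13.7% of all genes called higher. The 4 genes of anaphase onset and cohesin release, among them separase (ESPL1), had a long-term median of 0.03 with none called. Lists this short say little beside the shares of all genes.

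Long culture by itself left these mRNAs near their starting level in nontarget cells. Against the short-term nontarget libraries, 0 of 48 were higher in edgeR, against 3.17% of all genes tested, with 2 at an unadjusted p below 0.05 and 0 by DESeq2, and 1 was lower, KIF18A, against 4.38%. The median was 0.02, and the 95% interval lay within 1.5-fold for 45 of 48. KIF18A, a kinesin that damps chromosome movements at the metaphase plate, was at 55.0, 57.9 and 59.4 CPM short-term and at 48.1, 39.0 and 40.5 CPM long-term, a log2 change of -0.43 ± 0.12 (adjusted p = 0.0337). The groups did not overlap, but the call was lost without any of the short-term nontarget replicates 1 (0.0769), 2 (0.11) and 3 (0.107) and without long-term nontarget replicates 2 (0.128) and 3 (0.103). It was also lost without the libraries of number 3 (0.0567). There CCNB1 was the 1 member called, higher (2.08% of members, beside 4.79% of all genes).

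In knockdown cells, long against short culture gave 5 members higher, or 10.4% against 11.5% of all genes tested: SMC4 (log2 fold change 0.70 ± 0.13, adjusted p = 6.29e-04), ECT2 (0.59 ± 0.12, 0.00145), BIRC5 (0.56 ± 0.09, 1.47e-04), CENPA (0.49 ± 0.13, 0.00803) and CCNB2 (0.40 ± 0.11, 0.00965). None was lower in edgeR against 15.2% of all genes, with 2 at an unadjusted p below 0.05 and 0 by DESeq2. These 5 genes are among the 6 of the long-term knockdown comparison, which shares the long-term knockdown libraries, so the comparisons are not independent. BIRC5 was at 197, 188 and 184 CPM in short-term nontarget and at 194, 180 and 184 CPM in short-term knockdown libraries, and every long-term library of either kind lay above these 6. The call of CCNB2 was lost without long-term knockdown replicate 1 (adjusted p = 0.0506) or 2 (0.0569). Same-numbered libraries tended to vary together here as well. With the replicate block 9 members (18.8%) were higher, beside 15.8% of all genes, and 2 (4.17%) lower, beside 18.6%. The 4 gained on the higher side were the checkpoint protein MAD2L1 (0.41), the kinetochore protein NUF2 (0.48), the centrosomal kinase NEK2 (0.29) and the spindle protein NUSAP1 (0.28). The lower ones were the checkpoint kinase BUB1 (-0.32) and the contractile ring scaffold ANLN (-0.24).

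The interaction asks whether the knockdown effect differed between long and short culture. SMC4 was the 1 member called, higher, against 4.98% of all genes tested, and 0 were lower in edgeR against 8.43%, with 5 and 1 at an unadjusted p below 0.05 and 2 and 0 by DESeq2. The next largest values were those of NUF2 (0.52 ± 0.27, adjusted p = 0.231), ECT2 (0.52 ± 0.17, 0.0529) and KIF18A (0.47 ± 0.17, 0.0771), which did not pass. With the replicate block all 3 were called (adjusted p = 0.03, 0.01 and 0.0382), as was CCNB2 (0.42, adjusted p = 0.0218), and CDC20 was called lower (-0.42, adjusted p = 0.0298). That made 5 members higher (10.4%), beside 8.58% of all genes, and 1 lower (2.08%), beside 12% of all genes. Same-numbered libraries tended to vary together between the long-term knockdown group and both of the groups it was compared with, but not between the others. The 95% interval of the interaction without the block lay within 2-fold for 44 members and within 1.5-fold for 29.

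Of the 6 members that rose long-term, 4 lay among genes whose median was also above 0.2. For each member the median log2 fold change of its 40 nearest tested genes on the chromosome was taken, and these medians ran from -0.25 to 0.51 in the long-term comparison. CENPA (chr2:26764289-26801067 on GRCh38) had the highest, 0.51, against its own 0.77. ECT2 and SMC4, on the same chromosome (chr3:172750682-172821474 and chr3:160399274-160434962), had neighbour medians of 0.43 and 0.26 against their own 0.59 and 0.78, and BIRC5 (chr17:78214186-78225636) had 0.21 against 0.28. CCNB2 (chr15:59105078-59125045) and KIF11 (chr10:92593286-92655395) lay among neighbours with medians of -0.09 and -0.02. Short-term, the neighbour medians were 0.27 for CENPA, -0.01 for ECT2, -0.06 for SMC4 and -0.01 for BIRC5. The part of the region in these rises was not tested.

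Exons of 17 members overlap those of another gene, and whether reads were counted by strand is not given in the sources used here. SMC4 overlaps IFT80 and TRIM59, which were also higher long-term, by 0.72 ± 0.16 (adjusted p = 0.00251) and 0.63 ± 0.13 (0.00147), and close to 0 short-term (0.03 and -0.01). CENPA overlaps SLC35F6, which was higher in both knockdown comparisons, by 0.67 ± 0.15 short-term (0.00578) and 0.98 ± 0.14 long-term (5.92e-05). Reads shared with these genes were not tested for, so the values of SMC4 and CENPA are uncertain in that respect. ECT2, CCNB2, KIF11 and BIRC5 have no exon overlap in the annotation.

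**Figure D3:**
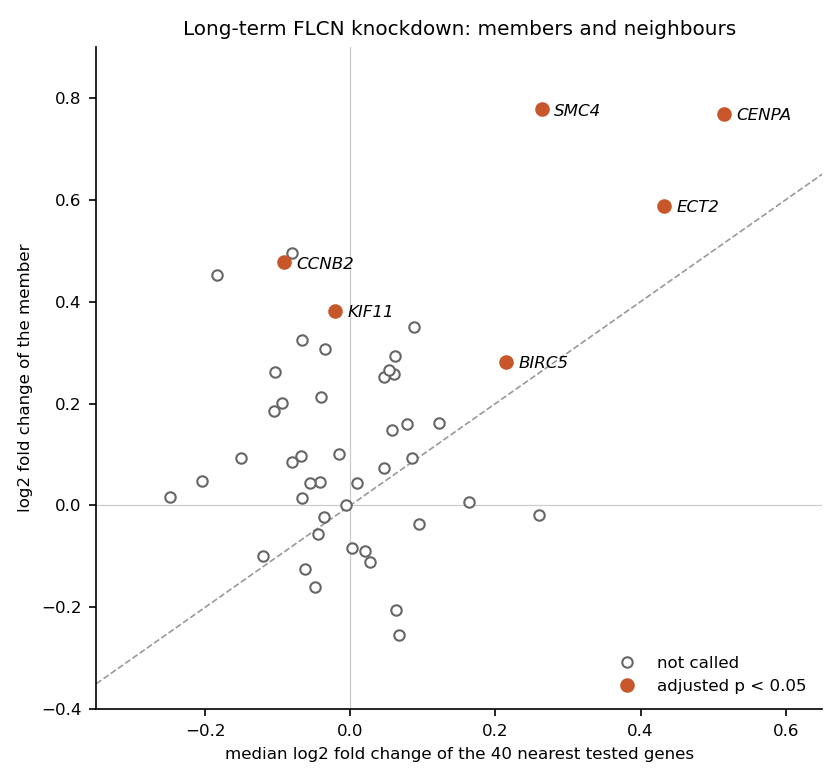
Log2 fold change of each of the 48 members after long-term FLCN knockdown (vertical axis) against the median of its 40 nearest tested genes (horizontal axis), with the dashed line where they are equal and filled points at an adjusted p below 0.05. CENPA and ECT2 lie furthest right, at neighbour medians of 0.51 and 0.43, while CCNB2 and KIF11 rose among neighbours near 0.

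Within groups many of the members varied together, and the direction was related to GC content. Their biological coefficient of variation was 7.5% (KIF2C) to 25.5% (CENPE), with a median of 10.4% against 11.9% for all genes tested. Over the 12 deviations from the group means, in log2 CPM, the median correlation between 2 members was 0.48 against 0.005 for 30 DNA replication genes, a description with no test. Of the pairs 64.1% were above 0, against 50.1% for the replication genes, whose GC content was not compared. By role, the median ran from 0.13 (anaphase onset and cohesin release) to 0.78 (central spindle and cytokinesis). In 36 members the deviations correlated above 0 with the mean of the other members and in 12 below 0. Those 36 had a median GC content of 40.8% in their longest transcript, and the 12, among them INCENP (59.6%), CDC20 (57.9%), PLK1 (57.1%), BIRC5 (52.2%) and CENPA (47.8%), had 53.9%. MAD2L1 (39.4%) and BUB3 (41.4%) were also among the 12, with correlations of -0.18 and -0.07, and NCAPD2 (52.5%) was among the 36, so GC content did not separate the groups. The correlation over the 48 members between GC content and that correlation was -0.80, a description with no test.

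The pattern was largest in libraries of number 3 and in 1 of number 1. Over 13938 genes, the correlation of a library's deviations with GC content was 0.48 in short-term knockdown replicate 3, 0.56 in long-term nontarget replicate 3 and 0.59 in long-term knockdown replicate 3, but -0.13 in short-term nontarget replicate 3, and -0.59 in long-term nontarget replicate 1. In long-term knockdown replicate 3, 10 of the 48 members lay above their group mean, and in replicate 2 of that group 37 did. CDC20 had its highest value of all libraries in short-term knockdown replicate 3, and SMC4, ECT2 and CCNB2 had their lowest value of the group in long-term knockdown replicate 3. The part of GC content in these values, and the cause of its pattern, were not tested. Leaving out the 4 libraries of number 3 gave 5 higher members (10.4%, beside 7.95% of all genes in that fit) and 0 lower (beside 6.26%) short-term. Long-term it gave 10 higher (20.8%, beside 16% of all genes) and 2 lower (4.17%, beside 17.8%).

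**Figure D4:**
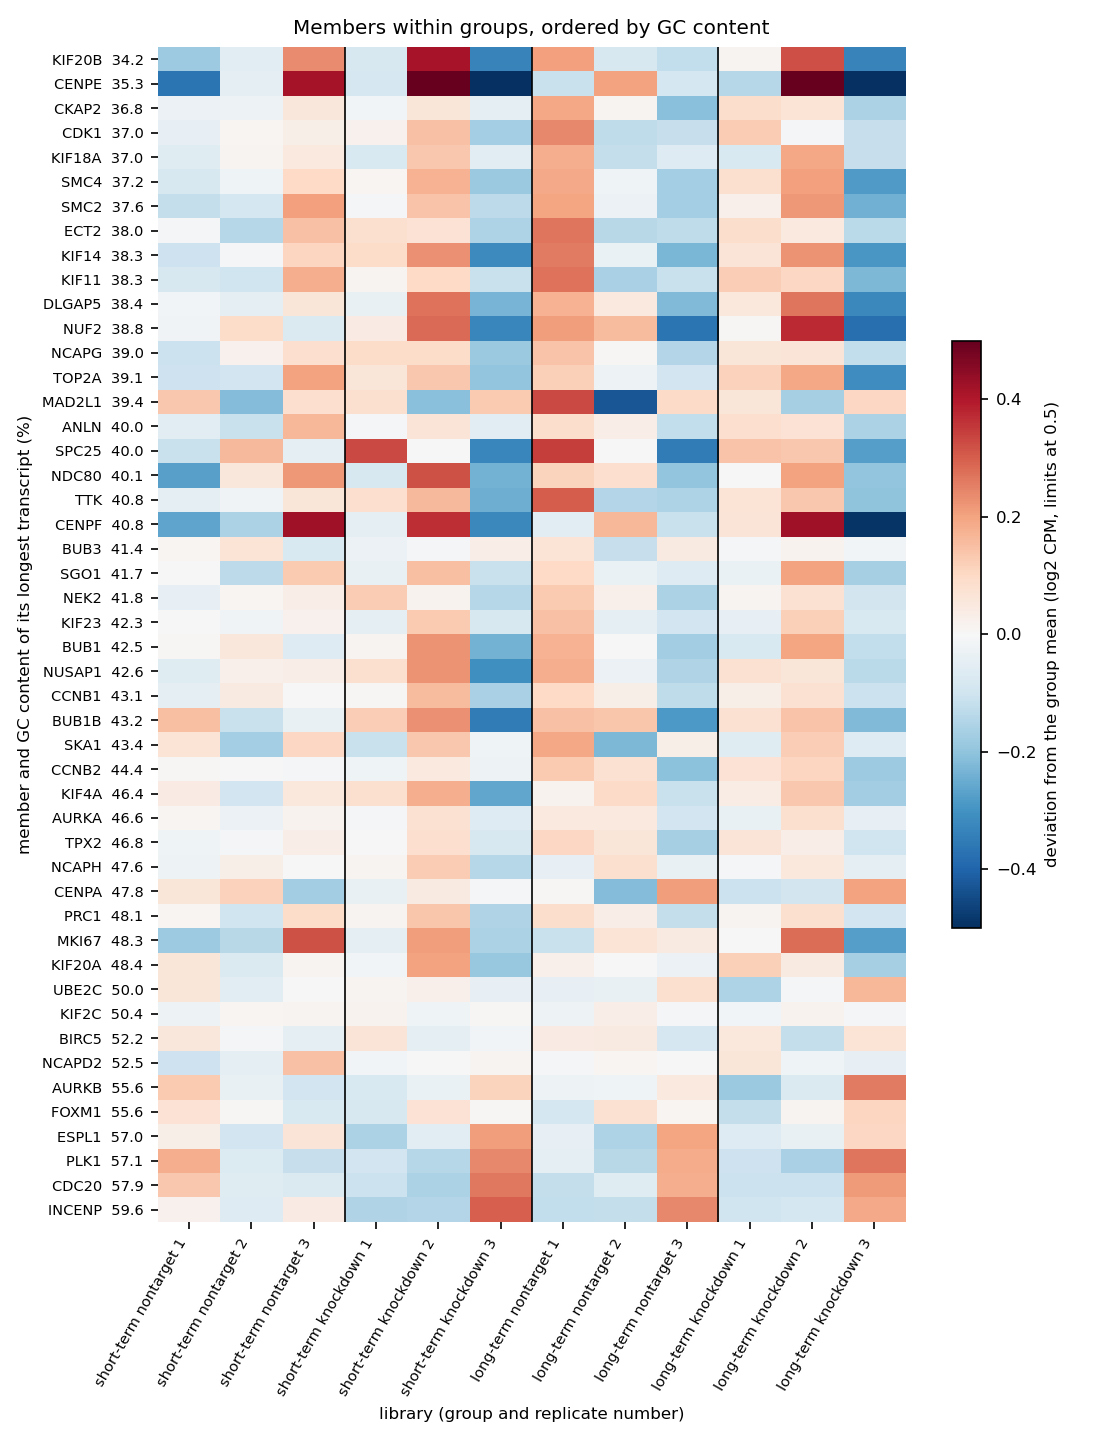
Deviation of each member (lines, ordered from low GC content at the top to high at the bottom, percent beside the name) from its group mean in log2 CPM in each of the 12 libraries (columns), with colours ending at 0.5 in either direction, which 4 values exceed. In replicate 3 of short-term knockdown, long-term nontarget and long-term knockdown, most low-GC members are below and the high-GC members CDC20, PLK1 and INCENP above their group means.

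Of 110 further genes of these pathways, listed by role, 109 could be tested. Short-term 4 were higher and 7 lower, and long-term 14 were higher and 12 lower, with medians of 0.03 and 0.08. These are 3.67% and 6.42% short-term and 12.8% and 11% long-term, beside 5.62% and 4.71%, and 13.7% and 15.8%, of all genes tested. By list, 5 were higher and 4 lower of 31 other kinetochore and centromere genes long-term, 3 and 0 of 15 condensin II and cohesin genes, 2 and 1 of 18 genes of the anaphase-promoting complex, 1 and 1 of 14 mitotic kinases, cyclins and phosphatases, 2 and 2 of 18 spindle and cytokinesis genes, and 1 and 4 of 13 regulators of mitotic transcription. Of the 30 DNA replication genes, 0 were called short-term, and 5 were higher (16.7%, beside 13.7% of all genes) and 0 lower long-term.

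CENPK, an inner kinetochore subunit that sits on CENPA chromatin, fell in both knockdown comparisons. It was at 25.4, 20.2 and 29.1 CPM in short-term nontarget and at 14.2, 9.5 and 10.6 CPM in short-term knockdown libraries, and at 30.6, 24.8 and 23.6 CPM in long-term nontarget and at 12.3, 13.5 and 7.80 CPM in long-term knockdown libraries. The log2 fold changes were -1.10 ± 0.21 (adjusted p = 0.00175) and -1.20 ± 0.20 (adjusted p = 1.90e-04), opposite in sign to that of CENPA. Its partner CENPH was level short-term (-0.02 ± 0.13) and rose long-term, from 30.3, 25.1 and 23.4 CPM to 38.0, 42.7 and 41.2 CPM (0.62 ± 0.13, adjusted p = 9.63e-04), and CENPQ of the same network fell short-term by 0.66 ± 0.19 on the log2 scale (adjusted p = 0.029). HJURP, the chaperone that deposits CENPA at centromeres, rose in both, by 0.47 ± 0.10 short-term (adjusted p = 0.00386) and 0.40 ± 0.10 long-term (0.00357).

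Securin (PTTG1), which holds separase inactive, was higher by 0.55 ± 0.12 short-term (adjusted p = 0.00625) and by 0.60 ± 0.12 long-term (8.66e-04), among neighbours with medians of 0.43 and 0.55. ANAPC11, the catalytic RING subunit of the anaphase-promoting complex, rose by 0.87 ± 0.16 long-term (adjusted p = 3.46e-04). HASPIN, a histone kinase that recruits the chromosomal passenger complex, rose from 10.3, 12.7 and 11.5 CPM to 20.8, 19.5 and 20.5 CPM long-term, a log2 fold change of 0.81 ± 0.14 (adjusted p = 3.12e-04), and was at -0.01 ± 0.16 short-term. KIF3A, a motor of cilia, fell by 0.91 ± 0.20 on the log2 scale short-term (adjusted p = 0.00433) and by 0.56 ± 0.18 long-term (0.0253).

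Among the regulators, CDKN1A (p21), an inhibitor of cyclin-dependent kinases, was at 59.1, 65.4 and 104 CPM in long-term nontarget and at 29.4, 27.2 and 20.5 CPM in long-term knockdown libraries. The groups were well apart, with a log2 fold change of -1.55 ± 0.19 (adjusted p = 9.8e-06), and short-term it was -0.02 ± 0.18. MYBL2 (B-MYB), the activator that joins MuvB at promoters of late cell cycle genes, rose short-term, from 581, 522 and 535 CPM to 671, 724 and 970 CPM (0.53 ± 0.14, adjusted p = 0.0247), with the same high replicate 3 as CDC20, and was at -0.03 ± 0.14 long-term.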

How the data were processed

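Poly(A) RNA libraries (TruSeq RNA v2) of HK2 cells were analysed, 3 per group. The deposited counts are whole reads per gene, not normalized. The submitters' processing notes name STAR, featureCounts, DESeq2 and GRCh38, and versions and strand setting are not given in the sources used here. The whole-series table and the per-library files differed in 0 values. The table also holds normalized scores, which the authors made by dividing the counts by 1 size factor per library and rounding, and these were not used. The 48 members and all gene lists were chosen with earlier results of these data known.

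Counts were fitted with edgeR 4.0.16 in R 4.3.3 (TMM, filterByExpr, robust quasi-likelihood, prior count 2), in 1 model of 12 libraries with a term per group. Benjamini-Hochberg adjustment ran over 13959 genes, which held 99.8% of counts, and a call is an adjusted p below 0.05. The tested genes had a common biological coefficient of variation of 12.0%, and errors are SEs of the fit. Scripts were tested on simulated data. Gene positions and exons came from GENCODE release 29, in which 47 members matched with ID version and 1 without. GC content is that of the longest annotated transcript. Members given in every library are the 5 largest called rises and falls of each comparison, with CDK1, CCNB1, FOXM1, MKI67, TOP2A, AURKB, BUB1B and CENPA, and named pathway genes are the 3 largest called rises and falls in each knockdown comparison, of which 1 is not reported here. Alternatives were RLE factors, DESeq2 1.42.0, other filters, 2-group fits, stricter calls, a replicate block, each library left out and, chosen after seeing the data, a GC offset and leaving out the libraries of number 3.

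Replicate numbers come from the labels. The correlations of deviations of same-numbered libraries were 0.284, 0.123 and 0.458 for the long-term knockdown comparison and 0.223, 0.292 and 0.455 for long against short culture of knockdown cells. Those of different-numbered libraries ran from -0.397 to 0.231 and from -0.329 to 0.134. Long-term knockdown replicate 2 correlated more with long-term nontarget replicate 1 (0.231) than with replicate 2 (0.123). The highest values were those of number 3, and the part of GC content in them was not tested. The block is given beside those results, though the numbers are not shown to pair every library. Same-numbered correlations were 0.017, 0.111 and 0.054 for short-term knockdown and -0.034, 0.077 and 0.025 for nontarget cells, where libraries share only a number.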

Additional observations from a re-analysis of the deposited data

Results flagged for a closer look

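The knockdown effect differed between long and short culture, by the interaction term of the edgeR fit, for 1 member and for 3 of the named pathway genes. The long-term minus short-term difference in log2 fold change was 0.72 for SMC4 (adjusted p = 0.0134), which was higher in 3 of 3 long-term knockdown libraries than in every other library. It was 0.65 for CENPH (adjusted p = 0.022) and 0.82 for HASPIN (adjusted p = 0.013), both higher long-term in 3 of 3 libraries. It was -1.53 for CDKN1A (adjusted p = 5.94e-04), lower long-term in 3 of 3 libraries. TRIM59, which overlaps SMC4, had a difference of 0.64 (adjusted p = 0.0323), and its part in the value of SMC4 was not tested.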

How the results depend on the processing

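The median log2 fold change of the members ran, over the fits without 1 library and over the others, from -0.0635 to 0.0377 and -0.0142 to 0.0772 short-term, 0.0463 to 0.1639 and 0.0795 to 0.1178 long-term, -0.0576 to 0.0665 and 0.0081 to 0.0674 in nontarget culture, 0.0788 to 0.1694 and 0.0878 to 0.1285 in knockdown culture, and 0.0385 to 0.1728 and 0.0165 to 0.1259 in the interaction, lowest without the libraries of number 3. Of 190 counts of called members, each for 1 comparison, direction and alternative, 70 moved by over 1.5 times or went from or to 0, and the cause was not tested. With the replicate block, higher and lower counts went to 3 and 1 for short-term knockdown, 11 and 2 for long-term knockdown, 2 and 2 for long culture of nontarget cells, 9 and 2 for long culture of knockdown cells and 5 and 1 for the interaction. With the GC offset they were 4 and 1, 11 and 2, 3 and 2, 8 and 2, and 5 and 1 in the same order, and with GC offset and replicate block 9 and 1, 15 and 2, 7 and 2, 11 and 5, and 6 and 3. More of all genes were called with the offset too, with and without the block. So it was with the block alone for long-term knockdown, long culture of knockdown cells and the interaction. For short-term knockdown and nontarget culture the share of all genes with the block alone was not taken, so those counts stand without it. With the offset, in the same order, 9.33%, 18.2%, 6.28%, 16.4% and 9.04% of all genes were higher, beside 8.33%, 22.9%, 6.25%, 16.7% and 10.4% of members, and 7.58%, 20.3%, 7.5%, 19.3% and 12.5% were lower, beside 2.08%, 4.17%, 4.17%, 4.17% and 2.08%. With offset and block 12.5%, 21.4%, 9.28%, 19.8% and 12.6% of all genes were higher, beside 18.8%, 31.2%, 14.6%, 22.9% and 12.5% of members, and 10.7%, 23.1%, 10.4%, 22% and 15.7% were lower, beside 2.08%, 4.17%, 4.17%, 10.4% and 6.25%. Without the libraries of number 3 they were 5 and 0, 10 and 2, 1 and 0, 10 and 1, and 2 and 0. The last 3 comparisons then had 2.08%, 20.8% and 4.17% of members higher, beside 4.79%, 13.7% and 6.6% of all genes, and 0%, 2.08% and 0% lower, beside 6.47%, 17.7% and 10%. With no filter, short-term knockdown had 2 and 1, long culture of knockdown cells 1 lower and the interaction 2 higher. DESeq2 gave 1 lower long-term and 2 higher in the interaction, and the 2-group fit 3 higher short-term. A fold limit of 1.5 left 0 short-term, 3 long-term, 0 lower in nontarget and 2 higher in knockdown culture, and an adjusted p below 0.01 left 0 short-term, 0 in nontarget culture and 0 in the interaction.

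Leaving out 1 library gave 0 to 1 higher and 0 to 0 lower short-term, 4 to 10 and 0 to 1 long-term, 0 to 0 and 0 to 1 in nontarget culture, 4 to 10 and 0 to 1 in knockdown culture, and 1 to 4 and 0 to 1 in the interaction. The long-term count was 10 without long-term nontarget replicate 1, 9 without long-term knockdown replicate 3 and 4 without long-term nontarget replicate 3 or long-term knockdown replicate 1. The knockdown culture count was 8 without short-term knockdown replicate 2 and 10 without long-term knockdown replicate 3. The interaction count was 4 without long-term nontarget replicate 1 or long-term knockdown replicate 3 and 2 without short-term nontarget replicate 2. The share of all genes called was not taken for fits without 1 library, with no filter, by DESeq2, in 2-group fits or at stricter limits. Whether the members moved more than all genes did cannot be read from those counts.

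Uncalled values near 0 changed sign. Leaving out 1 library gave -0.0697 to 0.0872 for CDK1, -0.0938 to 0.0662 for CCNB1 and -0.0368 to 0.252 for MKI67 short-term, and -0.105 to 0.0167 for CCNB1, -0.0324 to 0.214 for TOP2A, -0.131 to 0.0944 for AURKB and -0.221 to 0.0183 for BUB1B long-term. Short-term, CCNB1 was 0.0668 and TOP2A 0.0576 without the libraries of number 3. With the GC offset CCNB1 was 0.0262 and FOXM1 -0.0102, and with offset and replicate block 0.0254 and -0.0123. AURKB long-term was -0.102 without number 3, -0.0076 with the GC offset, -0.0083 with block and offset, and -0.0023 over genes of at least 10 CPM. BUB1B was called lower short-term with no filter (adjusted p = 0.0173) and CENPA higher in the 2-group fit (0.0342), and both with the replicate block (0.00561 and 0.0239), the GC offset (0.0127 and 0.0209) and both together (4.99e-04 and 0.00586). KIF11 and BIRC5 lost their long-term call in the 2-group fit (0.0669 and 0.0678). BIRC5 also lost it with no filter (0.0713) and without the libraries of number 3 (0.0538). KIF11 was called higher short-term with no filter, in the 2-group fit, with the block, with the GC offset and without the libraries of number 3. Where libraries share only a number, the block does not speak to the size of an effect.

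The 95% interval lay within 1.5-fold for 41 of 48 members short-term and 36 long-term, and reads shared with overlapping genes cannot be separated.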
